A study of Rattus norvegicus with 418 samples.

Results

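The 8 genes Irf1, Irf7, Mx1, Mx2, Rsad2, Oas1a, Isg15 and Usp18 are induced by interferons, and their mRNA was measured here in the livers of rats given 1 of 8 hepatotoxicants or the vehicle. Their probe sets were taken by gene symbol from the platform's annotation of the array, but the genes were chosen with earlier results of these data known. They make up 8 of the 14217 genes with a symbol of their own. Mx2 was represented by 2 probe sets and the other members by 1 each, 9 probe sets in all, and the probe set with the highest mean signal stood for the gene. Each value below is a level, log2(signal + 16), or a difference between such levels, so that a difference of 1 is a doubling for a gene well above the added constant.

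The series holds 418 arrays from the left lateral liver lobe of male F344/N rats aged 10 to 12 weeks, 1 rat per array, of which 318 were from dosed and 100 from vehicle rats in 98 groups. All rats had been fasted, and livers were taken after 6, 24 or 48 h of exposure. Corn oil by gavage carried 1,2-dichlorobenzene and 1,4-dichlorobenzene (15, 150 and 1500 mg/kg), N-nitrosomorpholine (10, 50 and 300 mg/kg), bromobenzene (25, 75 and 250 mg/kg), thioacetamide (15, 50 and 150 mg/kg) and monocrotaline (10 and 50 mg/kg, with 300 mg/kg at 6 h and 30 mg/kg at 24 h as labelled). Phosphate-buffered saline by intraperitoneal injection carried galactosamine (25, 100 and 400 mg/kg) and diquat dibromide (5, 10, 20 and 25 mg/kg). Each compound and time had vehicle rats of its own. Groups held 4 rats, apart from 6 in the diquat groups, 2 in the vehicle group of thioacetamide at 6 h and 2 at 1500 mg/kg 1,2-dichlorobenzene at 48 h. The labels also give each rat a necrosis score from 0 to 4, with 0 for no necrosis.

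Interferons are secreted proteins that bind receptors on the same or neighbouring cells and, through kinases of the Jak family, switch on a battery of antiviral genes. Type I interferons act mainly at a DNA element called ISRE, and interferon-gamma mainly at an element called GAS. The members fall into 3 roles. Irf1 and Irf7 are transcription factors of the pathway, Irf1 being classically induced by interferon-gamma and inflammatory cytokines and Irf7 being the factor that amplifies type I interferon. Mx1, Mx2, Rsad2 and Oas1a are antiviral effectors, namely dynamin-like GTPases (Mx1 and Mx2), the radical enzyme viperin (Rsad2) and an oligoadenylate synthetase that activates RNase L (Oas1a). Isg15 is a ubiquitin-like modifier, and Usp18 is the protease that removes it and dampens signalling from the type I receptor.

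Promoter windows from RefSeq (assembly GRCr8, 250 bases before to 50 bases after 1 annotated start, on the gene's strand) matched 5 of the 8 members, namely Irf1, Irf7, Mx1, Rsad2 and Oas1a. The start of the window was the outer end of the gene's RefSeq span for Irf1, and lay 43 bases inside the span for Oas1a, 93 for Mx1, 125 for Rsad2 and 520 for Irf7, whose whole window is inside the gene. The 4 windows with a match are printed because the members moved together in many groups. Capitals mark the ISRE core, GAAA and GAAA with any 2 bases between them (TTTC and TTTC on the other strand), or the GAS letters TTCNNNGAA, which read the same on both strands.
Irf7 (chr1:205799974-205800273, minus strand): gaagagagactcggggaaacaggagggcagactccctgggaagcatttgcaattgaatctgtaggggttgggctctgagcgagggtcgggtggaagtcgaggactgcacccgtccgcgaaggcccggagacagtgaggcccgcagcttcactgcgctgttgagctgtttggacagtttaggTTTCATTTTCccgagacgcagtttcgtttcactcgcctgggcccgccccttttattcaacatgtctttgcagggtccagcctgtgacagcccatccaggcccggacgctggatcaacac
Rsad2 (chr6:48788071-48788370, minus strand): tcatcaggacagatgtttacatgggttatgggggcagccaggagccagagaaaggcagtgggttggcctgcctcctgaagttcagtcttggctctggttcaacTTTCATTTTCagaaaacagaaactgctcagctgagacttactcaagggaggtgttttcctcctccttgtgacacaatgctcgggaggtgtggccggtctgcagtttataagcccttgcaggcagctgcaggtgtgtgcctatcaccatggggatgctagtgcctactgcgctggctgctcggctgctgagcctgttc
Oas1a (chr12:41330216-41330515, plus strand): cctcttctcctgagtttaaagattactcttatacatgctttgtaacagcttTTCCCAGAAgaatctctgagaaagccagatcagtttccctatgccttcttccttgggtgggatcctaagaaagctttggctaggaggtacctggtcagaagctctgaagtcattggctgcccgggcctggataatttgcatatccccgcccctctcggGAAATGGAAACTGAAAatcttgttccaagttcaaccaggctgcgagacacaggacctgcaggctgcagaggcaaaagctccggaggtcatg
Irf1 (chr10:38417685-38417984, plus strand): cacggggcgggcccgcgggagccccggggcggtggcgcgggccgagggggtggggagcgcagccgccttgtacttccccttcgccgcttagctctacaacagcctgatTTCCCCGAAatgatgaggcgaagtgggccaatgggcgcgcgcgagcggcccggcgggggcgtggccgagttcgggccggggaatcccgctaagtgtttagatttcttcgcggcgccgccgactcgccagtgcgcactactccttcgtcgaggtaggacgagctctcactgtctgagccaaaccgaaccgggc
The ISRE core was found in Irf7 (first base at -69, counted from the start the window is built on, not from the outer end of the gene), Rsad2 (-147) and Oas1a, whose matches GAAATGGAAA (-41) and GAAACTGAAA (-35) overlap. Irf7 and Rsad2 carried the same 10 letters, TTTCATTTTC. GAS letters were found in Irf1 (TTCCCCGAA, -142) and Oas1a (TTCCCAGAA, -199), and the Mx1 window held neither. Of all RefSeq promoter windows of this length, 3.92% held the ISRE core and 8.87% the GAS letters. A match is a run of letters, not a measured binding site.

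In vehicle livers the members were well within the range of the array. Over the 100 vehicle rats, Irf1 ran from 9.14 to 10.81 with a median of 9.94, and Irf7 from 8.46 to 10.43 with a median of 9.58. Isg15 had a median of 9.26 (8.09 to 10.74), Usp18 of 9.78 (8.08 to 10.82), Oas1a of 9.35 (8.05 to 10.56), Mx2 of 8.99 (7.50 to 10.12), Rsad2 of 8.25 (6.36 to 8.90) and Mx1 of 7.46 (6.17 to 8.59). Within a vehicle group the SD between rats was 0.27 for Irf1 and between 0.35 and 0.43 for the other 7. The second Mx2 probe set was dim, with a mean of 5.67 and 15.55% of arrays under a signal of 16, and it did not follow the main one. The Oas1 genes of rodents are near-identical copies, so the Oas1a signal may hold more than 1 of them. The arrays had 4.24 to 18.2% of probe sets under a signal of 16, and arrays of the same group correlated at a median r of 0.965 (lowest 0.84).

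Across the 74 dosed groups the members rose most often at 24 h. A call here is an adjusted p under 0.05 in limma, each dosed group against the vehicle rats of its own compound and time. Of the 592 comparisons of a member with its vehicle, 107 were rises and 33 falls, where 8.76% of all comparisons over the 14217 genes were rises and 6.9% falls. At 6 h there were 27 rises and 9 falls in 200 (6.59% and 7.31% over all genes). At 24 h there were 71 rises and 6 falls in 200 (11% and 8%). At 48 h there were 9 rises and 18 falls in 192 (8.64% and 5.34%), so that falls outnumbered rises at that time only. The comparisons of 1 compound and time share their vehicle rats. Centring each array on its median moved the share of rises among all called genes from 59.5% to 42% with 250 mg/kg bromobenzene, from 60.7% to 41.5% with 50 mg/kg thioacetamide and from 59% to 47.2% with 300 mg/kg N-nitrosomorpholine at 24 h, while the median difference of the 8 members went from 3.74 to 3.49, 3.66 to 3.41 and 1.70 to 1.54.

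**Figure D1:**
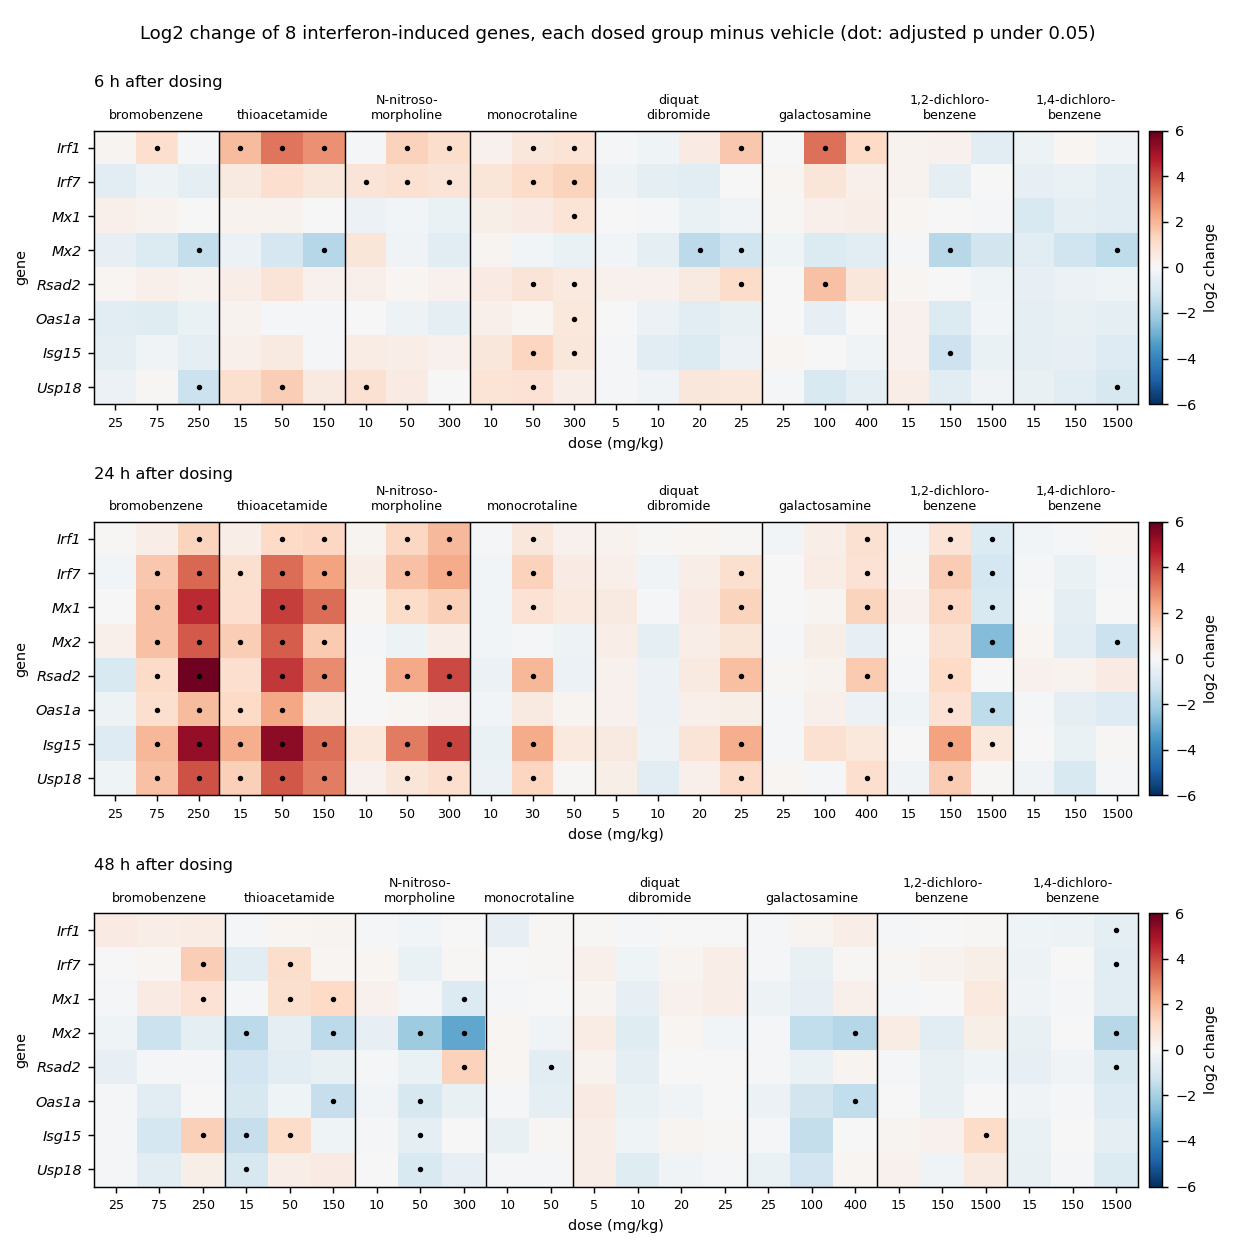
Heat maps of the difference in log2(signal + 16) between each dosed group and its vehicle group for the 8 members (rows) in every dosed group (columns), at 6, 24 and 48 h, with a dot where the adjusted p was under 0.05. The 24 h panel holds 71 of the 107 rises, and the row of Mx2 holds 14 of the 33 falls.

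The genes did not share 1 pattern. Irf1 rose in 19 groups, 11 of them at 6 h, 8 at 24 h and none at 48 h. Irf7 rose in 18 groups (5, 11 and 2 at the 3 times), Isg15 in 16 (2, 11 and 3), Rsad2 in 15 (4, 10 and 1), Mx1 in 14 (1, 10 and 3) and Usp18 in 14 (3, 11 and 0). Oas1a rose in 6 groups and Mx2 in 5, all 5 at 24 h. Mx2 was also the member that fell most often, in 14 groups, against 4 or fewer for each of the others. When each array of a comparison was left out in turn, 103 of the 140 calls held throughout and 37 were lost at least once. With hybridisation day as a fixed block 46 of the 113 calls that could be fitted were lost, in a fit of the 2 groups alone 21 of 140, in 1 fit of all arrays 20, with arrays centred on their median 11, with quantile normalization 10 and with the mean of all probe sets 9. Under every setting in which a call could be fitted, and with every array left out, 68 of the 140 calls held. Only 113 of the 140 had a value with day as a fixed block, and 124 in a fit of the 7109 genes with the higher mean signal. The 68 can thus hold calls that were never put to these 2 settings.

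The largest rises were in the livers of rats given 250 mg/kg bromobenzene, a solvent that liver cytochromes turn into a reactive epoxide, 24 h earlier. All 8 members rose, where 23.5% of all genes rose and 16% fell. Rsad2 stood at 13.92, 12.78, 14.28 and 13.46 in the 4 dosed rats and at 7.99, 8.07, 7.63 and 7.35 in the 4 vehicle rats. Isg15 stood at 14.57, 13.99, 15.12 and 14.79 against 9.64, 9.16, 9.13 and 9.46. For each of the 8 members every dosed rat was above every vehicle rat, and the share of all genes that separated so was not counted. The difference was 5.85 ± 0.39 (SE) for Rsad2 (adjusted p = 3.47e-17) and 5.27 ± 0.43 for Isg15 (3.35e-14). Mx1 rose by 4.48 ± 0.35, Usp18 by 3.8 ± 0.29, Mx2 by 3.68 ± 0.40 and Irf7 by 3.45 ± 0.26. Oas1a (1.92 ± 0.30) and Irf1 (1.33 ± 0.21) changed least. Irf1 was at 11.19, 11.03, 11.82 and 11.11 against 9.77, 9.75, 9.83 and 10.45, so its lowest dosed rat still lay above the highest vehicle rat. Irf7 was at 13.46, 12.83, 13.16 and 12.64 against 9.56, 9.24, 9.76 and 9.71, and Mx1 at 12.03, 11.05, 11.51 and 11.21 against 7.27, 7.39, 6.17 and 7.05. Mx2 was at 12.46, 12.06, 11.18 and 11.71 against 8.52, 7.62, 7.89 and 8.66, and Usp18 at 13.54, 13.13, 13.44 and 13.30 against 9.36, 9.8, 9.09 and 9.95. These were the largest rises of Rsad2, Mx1, Usp18, Mx2 and Irf7 among the 74 dosed groups. The 4 rats all had the necrosis score 4. On the day on which 2 of them were hybridised with the 4 vehicle arrays, the difference was 6.11 for Rsad2 and 5.61 for Isg15. The second Mx2 probe set differed by 0.69 (adjusted p = 0.214).

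Other genes of the pathway moved with them in these livers, though not every part of it. Of 34 measured further genes induced by type I interferon, 26 rose and none fell, with a median difference of 1.62 where the median of all genes was 0.17. The RNA-binding Ifit3 rose by 6.10 ± 0.33, Slfn4 by 4.88 ± 0.31, and Oasl, a relative of Oas1a, by 4.32 ± 0.22. A further list held 9 measured genes tied to the sensing of foreign or misplaced nucleic acid, not all of them sensors. They were Sting1, Ifih1, Dhx58, Mavs, Tlr7, Zbp1, Tbk1, Trex1 and Adar. Of these 8 rose, including Zbp1 (3.07 ± 0.25) and Tlr7 (2.09), and 1 fell. Of 24 genes of the interferon-gamma response 10 rose and 3 fell (median 0.44): the chemokine gene Cxcl10 rose by 3.84 ± 0.39 and the GTPase gene Gbp2 by 3.54 ± 0.32, while Cxcl11 fell by 2.22 ± 0.20. Of 14 signalling genes 7 rose and 3 fell, with Irf9 up by 1.89 ± 0.16, Stat2 up by 0.84 ± 0.13 and Tyk2 lower (-1.23). Among 5 measured genes for secreted signals, the interferon genes Ifnb1, Ifng and Ifnk and the interleukin genes Il15 and Il18, only Il18 rose (1.27 ± 0.17). No measured interferon gene was called. The type I interferon gene Ifnb1 differed by 1.11 ± 0.51 without passing the test (adjusted p = 0.0842). Over all arrays Ifnb1 was under a signal of 16 on 82.5%, Ifnk on 63.9% and Ifng on 36.6%. Ifna1, Ifna2, Ifna4, Ifne, Ifnl1 and Ifnl3 were not measured.

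Cell markers moved in the same livers. The summed signal of 7 neutrophil genes was 32350 to 51340 in the 4 rats given 250 mg/kg bromobenzene and 424.9 to 747 in their vehicle rats, and 6 of the 7 rose. Of 12 lymphocyte genes 3 rose (summed signal 1722 to 2229 against 820.8 to 1320), and of 5 genes of dendritic cells none rose or fell. Of 9 macrophage genes 3 rose and 2 fell. The neutrophil genes S100a8 and S100a9 were measured, and Mpo, Elane and the dendritic gene Siglech were not. Hepatocyte genes, summed, were at 307800 to 396500 against 278500 to 386000, which matches the labelled tissue. The part of these cells in the members' rise was not tested, and in whole liver more cells of a type and more RNA per cell cannot be told apart.

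At 75 mg/kg bromobenzene 7 members rose, where 10.4% of all genes rose. Isg15 was at 10.9, 9.53, 12.89 and 12.09 in the 4 rats, whose necrosis scores were 2, 0, 1 and 1, against at most 9.64 in the vehicle rats. The third and the fourth rats were the highest and the second rat, with no necrosis, was within the vehicle range. The differences were 2.00 ± 0.43 for Isg15, 1.77 ± 0.35 for Mx1, 1.76 ± 0.29 for Usp18, 1.74 ± 0.40 for Mx2 and 1.60 ± 0.26 for Irf7. The smaller rises of Rsad2 (1.14 ± 0.39) and Oas1a (0.95 ± 0.30) were lost when any of several single arrays was left out. For Rsad2 these were the third or the fourth rat of either group, with 0.60 (adjusted p = 0.337) as the lowest value. For Oas1a they were the third or the fourth dosed rat or the third vehicle rat, with 0.72 (0.131) as the lowest. Neither passed with quantile normalization (0.98 and 0.80), and Rsad2 did not pass with arrays centred on their median (1.04) or in a fit of the 2 groups alone (adjusted p = 0.119).

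**Figure D2:**
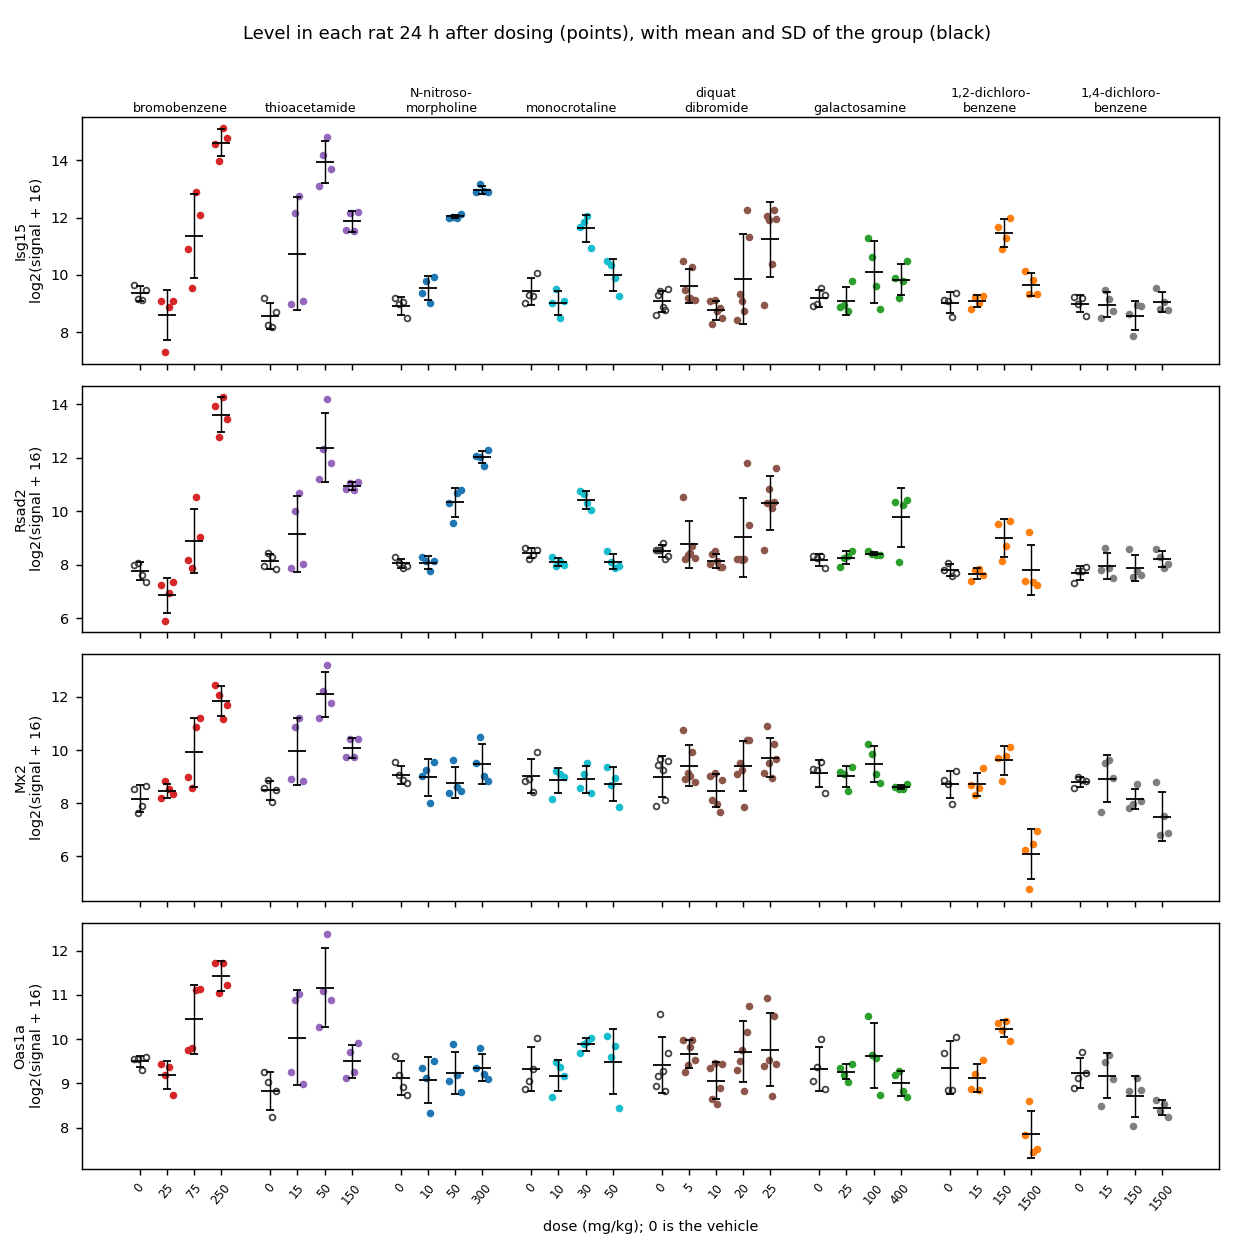
Levels, log2(signal + 16), of Isg15, Rsad2, Mx2 and Oas1a in each rat (points) at 24 h, by compound and dose, with the group mean ± SD. The rats given 250 mg/kg bromobenzene or 50 mg/kg thioacetamide lie above their vehicle rats in all 4 panels, while the rats given 50 or 300 mg/kg N-nitrosomorpholine do so for Isg15 and Rsad2 but overlap them for Mx2 and Oas1a.

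Thioacetamide, which liver enzymes oxidise to reactive forms, gave a response of like size that was larger at the middle dose than at the highest. At 50 mg/kg all 8 members rose at 24 h, where 28.3% of all genes rose. Isg15 was at 13.1, 14.17, 14.83 and 13.68 against 9.18, 8.25, 8.18 and 8.69 in the vehicle rats. Rsad2 was at 11.2, 12.34, 14.2 and 11.8 against 7.94, 8.43, 8.29 and 7.85. Oas1a was at 10.27, 11.09, 12.38 and 10.89 against 9.25, 9.04, 8.25 and 8.84. The groups did not overlap for any member, where the share of all genes was again not counted, and the third dosed rat was the highest for all 8. Isg15 rose by 5.37 ± 0.44, Rsad2 by 4.26 ± 0.40, Mx1 by 4.14 ± 0.41, Usp18 by 3.71 ± 0.29, Mx2 by 3.61 ± 0.39, Irf7 by 3.37 ± 0.32, Oas1a by 2.31 ± 0.34 and Irf1 by 1.20 ± 0.16, the values of Isg15 and Oas1a being their largest rises in the series. No dosed array of thioacetamide at 24 h shared a hybridisation day with its vehicle arrays. The second Mx2 probe set went the other way (-0.69, adjusted p = 0.17).

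At 150 mg/kg, where 30.5% of all genes rose, 7 members rose and Oas1a did not. Isg15 was at 11.58, 12.15, 11.54 and 12.21, below every rat of the 50 mg/kg group. Mx2 was at 9.74, 10.43, 9.74 and 10.41, against 11.22, 12.24, 13.19 and 11.76 at 50 mg/kg. The difference between the 2 doses, a comparison chosen after its values were seen, was -2.08 ± 0.44 for Isg15 (adjusted p = 0.00042), -2.02 ± 0.39 for Mx2 (9.47e-05), -1.66 ± 0.34 for Oas1a (0.000207), -1.44 ± 0.40 for Rsad2 (0.00703) and -0.97 ± 0.32 for Irf7 (0.0248), where 20.9% of all genes differed. It did not pass the test for Mx1 (-0.81 ± 0.41), Usp18 (-0.62 ± 0.29) or Irf1 (0.04 ± 0.16). Necrosis scores were 3, 3, 3 and 4 at 50 mg/kg and 4 in all 4 rats at 150 mg/kg. The Mx2 rise at 150 mg/kg was 0.37 (adjusted p = 0.301) over the mean of both probe sets, and did not pass with day as a fixed block (1.56, 0.0832).

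At 15 mg/kg thioacetamide 5 members rose (9.17% of all genes), and the rats split. Isg15 was at 8.99, 12.15, 12.75 and 9.09, so that the second and the third rats were high and the first and the fourth near the vehicle rats, while the necrosis scores were 0, 1, 1 and 1. The rise of Isg15 was 2.17 ± 0.44 and that of Usp18 was 1.43 ± 0.29. Those of Mx2 (1.46 ± 0.39), Oas1a (1.19 ± 0.34) and Irf7 (0.94 ± 0.32) were lost without the second or the third dosed rat, with lowest values of 1.05, 0.86 and 0.56. Oas1a was also lost without the third vehicle rat, and Irf7 without the second, the third or the fourth vehicle rat and with quantile normalization (0.91). Over the mean of all probe sets Mx2 (0.78) and Irf7 (adjusted p = 0.052) did not pass. In a fit of the 2 groups alone none of the 5 passed, Isg15 (adjusted p = 0.131) and Usp18 (0.0928) included.

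Neutrophil markers rose with 50 and 150 mg/kg thioacetamide as well. Their summed signal was 3505 to 6890 at 50 mg/kg and 7516 to 12400 at 150 mg/kg, against 232 to 652.5 in vehicle rats, with 4 and 5 of 7 markers rising. It was thus higher at 150 mg/kg, the dose at which Isg15 and Mx2 were lower. Lymphocyte genes rose in 6 of 12 cases at 50 mg/kg (1840 to 3209 against 792.2 to 1055), and 2 of 5 dendritic cell genes rose. Of 7 hepatocyte genes 5 fell at that dose (249500 to 300400 against 327600 to 404500). The part of these cells in the members' values was not tested. Of the 34 further type I genes 26 rose at 50 mg/kg and none fell (median 1.31, all genes 0.06), among them Slfn4 (3.96), Oasl (3.33) and Lgals3bp (3.07). Of the 24 interferon-gamma genes 16 rose and 1 fell, with Cxcl10 up by 4.25 and Gbp2 by 3.01.

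N-nitrosomorpholine, a nitrosamine that alkylates DNA after activation in the liver, raised only some of the members. At 300 mg/kg and 24 h 6 of 8 rose, where 27.2% of all genes rose. Isg15 was at 12.91, 13.18, 12.92 and 12.9 against 9.18, 8.97, 9.04 and 8.48, a rise of 4.06 ± 0.18 (adjusted p = 9.39e-23). Rsad2 was at 12.06, 12.03, 11.71 and 12.28 against 8.29, 8.08, 7.86 and 7.96, a rise of 3.97 ± 0.21. Irf7 rose by 2.22 ± 0.18, Irf1 by 1.94 ± 0.19, Mx1 by 1.45 ± 0.30 and Usp18 by 1.03 ± 0.22. Mx2 was at 9.53, 10.51, 9.01 and 8.84 against 9.55, 9.06, 8.87 and 8.78, and Oas1a at 9.34, 9.79, 9.22 and 9.10 against 9.62, 9.20, 8.91 and 8.74. These 2 effectors overlapped their vehicle rats (0.41 and 0.25, neither passing the test), in the livers where Isg15 did not.

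The 50 mg/kg dose also gave 6 rises, with Isg15 up by 3.12, Rsad2 by 2.29, Irf7 by 1.76, Irf1 by 1.24, Mx1 by 1.09 and Usp18 by 0.73 (19.7% of all genes rose). With hybridisation day as a fixed block in a fit of all arrays, Mx1 and Usp18 did not pass at either dose (1.07 and 1.01 at 300 mg/kg), and in 1 fit of all arrays without the block Usp18 did not pass at 50 mg/kg (adjusted p = 0.128). The Mx1 rise was 0.75 (adjusted p = 0.0527) without the second dosed rat. At 300 mg/kg, 18 of 24 interferon-gamma genes rose and none fell (median 0.98, all genes 0.07), including Cxcl10 (4.19), Gbp2 (3.28) and Gbp4 (3.08), and 22 of 34 further type I genes rose and 2 fell (median 0.57), including Ifit3 (2.42). Of 13 measured targets of the DNA damage factor p53, 12 rose and 1 fell, with Cdkn1a up by 4.20. In bromobenzene livers at 250 mg/kg 8 of the 13 rose and 2 fell, and in thioacetamide livers at 50 mg/kg 11 rose and 2 fell. Neutrophil markers, summed, were at 2613 to 17130 at 300 mg/kg and 628.8 to 1747 at 50 mg/kg, against 290 to 492.6 in vehicle rats, and their part was not tested.

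Monocrotaline, a plant alkaloid whose liver metabolites bind DNA, gave 6 rises at 24 h in the group labelled 30 mg/kg, where 25.8% of all genes rose, and none in the group labelled 50 mg/kg, where 6.07% rose. In the 30 mg/kg group Isg15 was at 11.67, 11.83, 12.06 and 10.94 against 9.01, 9.31, 9.26 and 10.08, a rise of 2.21 ± 0.25 with no overlap. Rsad2 rose by 1.98 ± 0.19, Irf7 by 1.38 ± 0.22, Usp18 by 1.27 ± 0.31, Mx1 by 0.87 ± 0.28 and Irf1 by 0.68 ± 0.17. Mx1 was at 0.71 (adjusted p = 0.0585) without the third dosed rat, 0.68 (0.0569) with quantile normalization and 0.65 (0.0607) with arrays centred on their median. The necrosis score was 4 in all 4 of these rats, and the summed neutrophil signal 34450 to 70050 against 337.6 to 613.8, with 7 of 7 markers rising. The labels do not settle whether 30 mg/kg is the dose given. At 50 mg/kg the values were 0.58 ± 0.25 for Isg15 and 0.50 ± 0.22 for Irf7. With limma the count there was 3 rises without the fourth vehicle rat and 2 without the fourth dosed rat.

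With diquat dibromide, a redox-cycling herbicide, the members varied between rats of 1 dose. At 25 mg/kg and 24 h 5 members rose, where 12% of all genes rose. Isg15 was at 8.95, 12.04, 11.91, 10.39, 12.26 and 11.95 in rats with necrosis scores of 0, 2, 4, 0, 3 and 3, against 8.60, 9.28, 9.42, 8.88, 8.76 and 9.51 in the vehicle rats. The 2 rats with no necrosis were the lowest, 1 of them within the vehicle range. At 20 mg/kg Isg15 was at 8.42, 9.33, 9.07, 8.75, 12.26 and 11.32, with scores of 0 in the first 4 and 3 and 2 in the last 2. No member passed the test there (0.352% of all genes rose), although Rsad2 stood at 11.82 and 9.5 in the last 2 rats and at 8.16 to 8.22 in the other 4. At 25 mg/kg the rises were 2.18 ± 0.41 for Isg15, 1.80 ± 0.36 for Rsad2, 1.32 ± 0.36 for Mx1, 1.13 ± 0.35 for Usp18 and 0.98 ± 0.28 for Irf7. With hybridisation day as a fixed block in a fit of all arrays none of the 5 passed (Isg15 1.97, adjusted p = 0.128). The summed neutrophil signal, 363.1 to 15820 at 25 mg/kg against 300.8 to 445.7, also varied between these rats.

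With 400 mg/kg galactosamine, an amino sugar that depletes uridine nucleotides in hepatocytes, 5 members were called at 24 h (21.4% of all genes rose). Rsad2 was at 10.35, 8.11, 10.22 and 10.41 in rats scored 3, 0, 3 and 2, against 8.32, 8.26, 8.32 and 7.86. The second rat, with no necrosis, was within the vehicle range for Rsad2 and, at 7.46, for Mx1. Rsad2 rose by 1.58 ± 0.36, Mx1 by 1.33 ± 0.31, Usp18 by 0.99 ± 0.37, Irf1 by 0.91 ± 0.30 and Irf7 by 0.89 ± 0.26. Mx2 (-0.51) and Isg15 (0.65) did not pass. With arrays centred on their median 2 of the 5 were called, in a fit of these 2 groups alone none was, and with day as a fixed block Rsad2 alone was. Usp18 did not pass with day as a random block either (0.95). Irf1 was lost without the first or the fourth dosed rat (lowest 0.78), and Usp18 without the first or the third dosed or the first or the fourth vehicle rat (lowest 0.86).

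Over all groups that held rats with and without necrosis, the member levels could be compared within the group. There were 28 such groups with 136 rats, 63 of them classed as necrotic. In limma with the group as a block, 6 members were higher in the necrotic rats, where 16.6% of all genes were. Rsad2 differed by 0.63 ± 0.10 (adjusted p = 2.04e-08), Isg15 by 0.52 ± 0.11, Mx1 by 0.48 ± 0.10, Irf7 by 0.42 ± 0.08, Usp18 by 0.35 ± 0.10 and Irf1 by 0.32 ± 0.07. Oas1a (0.17 ± 0.09) and Mx2 (0.01 ± 0.13) did not pass. Without the diquat groups Rsad2, Mx1 and Irf7 passed, and Isg15 (0.39, adjusted p = 0.059), Irf1 (0.19) and Usp18 (0.17) did not.

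In the dichlorobenzenes the chlorine atoms sit at different places on the ring, side by side in 1,2-dichlorobenzene and on opposite sides of the ring in 1,4-dichlorobenzene. At 150 mg/kg and 24 h 1,2-dichlorobenzene raised 7 members, where 14% of all genes rose. Isg15 was at 11.68, 10.89, 11.28 and 12.0 in the dosed rats (scores 3, 1, 2 and 2) and at 9.13, 9.10, 8.53 and 9.37 in the vehicle rats. Isg15 rose by 2.43 ± 0.25, Irf7 by 1.53 ± 0.23, Usp18 by 1.51 ± 0.32, Mx1 by 1.25 ± 0.31, Rsad2 by 1.21 ± 0.39, Oas1a by 0.88 ± 0.29 and Irf1 by 0.81 ± 0.24. The last 3 were lost with single arrays left out, Rsad2 without the first or the fourth dosed or the third vehicle rat (lowest 1.00), Oas1a without the first or the third dosed or the second or the third vehicle rat (0.71), and Irf1 without the fourth dosed rat (0.64). Oas1a did not pass with quantile normalization either (0.73). The summed neutrophil signal was 570.6 to 1533 against 246 to 397, and 1 of the 7 markers rose.

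At 1500 mg/kg the same compound gave falls, in rats with necrosis scores of 0, 4, 1 and 1. Mx2 was at 6.23, 4.76, 6.46 and 6.95 against 8.88, 8.74, 7.98 and 9.22, a difference of -2.61 ± 0.41 (adjusted p = 8.88e-07). Oas1a was at 7.83, 8.61, 7.45 and 7.52 against 9.69, 8.86, 8.86 and 10.04, a difference of -1.51 ± 0.29. For both genes every dosed rat lay below every vehicle rat. Irf7 was at 8.02, 9.04, 8.12 and 8.32 against 9.57, 9.14, 9.00 and 9.97, and Irf1 at 9.10, 9.52, 8.45 and 9.22 against 9.99, 10.21, 9.69 and 9.62. Irf7 (-1.05 ± 0.23), Mx1 (-0.90 ± 0.31) and Irf1 (-0.80 ± 0.24) also fell, 5 of 8 members where 20.9% of all genes fell and 22.3% rose. Mx1 was at -0.62 (adjusted p = 0.114) without the third dosed rat, and did not pass in a fit of the 2 groups alone (0.065). Isg15 was higher by 0.62 ± 0.25 (adjusted p = 0.0439), a call lost without any 1 of 5 arrays (the first or the third dosed or the first, the second or the third vehicle rat), with 0.45 as the lowest value, and also with quantile normalization (0.52), in a fit of the 2 groups alone and in a fit of all arrays with or without day as a block. The dim second Mx2 probe set was higher, by 0.93 (adjusted p = 0.0431), opposite to the main one.

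The further interferon genes fell in these livers too. Of 34 type I genes 23 fell and 1 rose (median -0.78, all genes 0.09), including Ifi35 (-3.00) and Parp9 (-2.36), and of 24 interferon-gamma genes 13 fell and none rose, including Igtp (-3.65), Cxcl11 (-3.57) and the immunoproteasome subunit Psmb9 (-2.71). Of 14 signalling genes 8 fell and 2 rose, with Tyk2 at -1.58, Stat2 at -1.57 and Irf3 at -1.42. Of 9 macrophage genes 5 fell and 2 rose (summed signal 9890 to 12710 against 13730 to 19190), while the summed neutrophil signal was 364.6 to 40980. Their part in the members' falls was not tested. The arrays of both groups, at 150 as at 1500 mg/kg, were hybridised on 1 day together with their vehicle arrays.

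The 2 isomers were compared at 9 matched doses and times, as the difference of their differences from vehicle. At 150 mg/kg and 24 h 6 members differed, where 15.2% of all genes did. Isg15 was at 8.63, 7.85, 8.94 and 8.91 with 1,4-dichlorobenzene, within or below its vehicle range of 8.57 to 9.22, against 10.89 to 12.0 with 1,2-dichlorobenzene. The isomer difference was 2.83 for Isg15 (95% interval 2.02 to 3.64, adjusted p = 1.5e-07), 2.41 for Usp18 (5.09e-05), 1.94 for Irf7 (1.01e-05), 1.84 for Mx1 (0.000676), 1.41 for Oas1a (0.0232) and 0.94 for Irf1 (0.0107). Mx2 (1.55, interval 0.41 to 2.70) and Rsad2 (1.01, 0.09 to 1.93) did not pass.

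At 1500 mg/kg and 24 h the isomers differed in the other direction, for Irf1 (-0.94, interval -1.49 to -0.40, adjusted p = 0.00732) and Irf7 (-0.93, -1.60 to -0.26, 0.0375), where 21.2% of all genes differed. Mx2 fell with 1,4-dichlorobenzene as well (-1.31 ± 0.38, where 14.7% of all genes fell), the only member called with it at that dose and time, a call lost with day as a fixed block (-1.67, adjusted p = 0.12), and the isomers' Mx2 values did not pass the test of their difference (-1.30, -2.44 to -0.15). Mx1 (-0.86, -1.69 to -0.04), Oas1a (-0.72, -1.62 to 0.19), Rsad2 (-0.50, -1.43 to 0.42), Isg15 (0.56, -0.25 to 1.37) and Usp18 (0.20, -0.72 to 1.11) did not pass either. At 48 h, with 2 rats given 1500 mg/kg 1,2-dichlorobenzene, 5 members differed upward (20.2% of all genes differed), by 2.02 for Mx2, 1.67 for Isg15, 1.36 for Usp18, 1.28 for Mx1 and 1.02 for Irf7. Over the mean of both probe sets the Mx2 difference was 0.62 (adjusted p = 0.394). In the other 6 pairs no member differed. These differences ran from -0.73 to 1.04, and their 95% intervals reached from -1.78 to 2.03. Over all genes 0.141%, 9.2% and 5.77% differed at 6 h (15, 150 and 1500 mg/kg), 0% at 15 mg/kg and 24 h, and 0% and 0.893% at 48 h (15 and 150 mg/kg). Leaving out single arrays took the counts from 2 to as low as 1 at 1500 mg/kg and 24 h, and from 5 to as low as 1 at 48 h. With hybridisation day as a fixed block 3 of the 13 isomer calls remained, all at 150 mg/kg and 24 h.

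**Figure D3:**
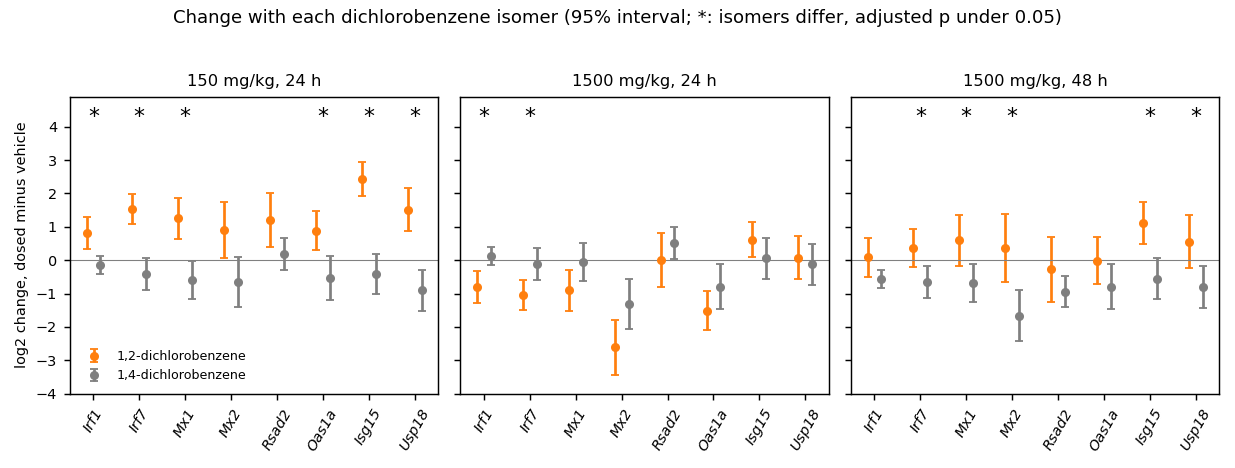
Difference from vehicle in log2(signal + 16) with 95% interval for each member with 1,2-dichlorobenzene and with 1,4-dichlorobenzene, at 150 and 1500 mg/kg at 24 h and 1500 mg/kg at 48 h, with a star where the isomers differed (adjusted p under 0.05). Stars stand over 6 members in the first panel, 2 in the second and 5 in the third.

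At 6 h the largest rises were those of Irf1. With 100 mg/kg galactosamine Irf1 was at 13.7, 12.99, 12.25 and 13.37 against 9.62, 9.89, 9.91 and 9.61, a rise of 3.32 ± 0.30 (adjusted p = 2.52e-10), where 4.7% of all genes rose. Rsad2 rose by 1.76 ± 0.36 and no other member did, and this Rsad2 call was lost with hybridisation day as a fixed block (1.28, adjusted p = 0.463). At 400 mg/kg Irf1 was at 10.06, 11.84, 12.11 and 9.75 in rats scored 1, 2, 2 and 0, so that the 2 higher rats were those with the score 2. The rise was 1.18 ± 0.30 (1.08% of all genes rose), and lay 2.14 ± 0.30 below that at 100 mg/kg (adjusted p = 2.78e-06, chosen after its values were seen, 8.29% of all genes). It was lost without the first vehicle or the second or the third dosed rat, with 0.79 as the lowest value, and in a fit of the 2 groups alone (adjusted p = 0.428). With day as a fixed block the Irf1 rise was 2.33 (adjusted p = 0.00675) at 100 mg/kg and 0.47 (0.693) at 400 mg/kg.

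Thioacetamide raised Irf1 at every dose at 6 h, against 2 vehicle rats at 9.40 and 9.55. No dosed array of thioacetamide at 6 h shared a hybridisation day with its vehicle arrays. Irf1 was at 11.32, 11.11, 11.56 and 11.51 at 15 mg/kg, at 12.87, 12.94, 12.37 and 12.54 at 50 mg/kg and at 12.23, 12.49, 11.99 and 12.14 at 150 mg/kg. The rises were 1.90 ± 0.19, 3.21 ± 0.19 and 2.74 ± 0.19 (8.32%, 10.7% and 9.43% of all genes rose). The middle dose had the highest value, and the difference between these doses at 6 h was not tested. Usp18 rose by 1.49 ± 0.35 at 50 mg/kg, and Isg15, at 9.18 to 9.90 against 9.03 and 9.05, did not pass the test. Irf1 further rose by 1.61 ± 0.29 with 25 mg/kg diquat (10.3% of all genes rose). It stood at 9.74, 12.41, 12.71, 9.49, 12.26 and 13.23 in rats scored 0, 2, 3, 0, 1 and 4. The 2 rats with no necrosis were within the vehicle range of 9.48 to 10.81, and the other dosed rats were above it. Irf1 also rose by 1.40 ± 0.19 and 1.04 ± 0.19 with 50 and 300 mg/kg N-nitrosomorpholine (16.9% and 18.2%) and by 1.03 ± 0.21 with 75 mg/kg bromobenzene (8.09%). Irf7 rose at 6 h with each dose of N-nitrosomorpholine, by 0.79, 0.92 and 0.78 at 10, 50 and 300 mg/kg (4.94% of all genes rose at 10 mg/kg, where Usp18 rose as well, by 0.93 ± 0.22). With day as a fixed block none of these Irf7 and Usp18 rises passed (adjusted p from 0.162 to 0.605), and both at 10 mg/kg were lost in 1 fit of all arrays without it. Rsad2 rose by 1.08 ± 0.36 with 25 mg/kg diquat, a call lost without the third or the sixth dosed rat (lowest 0.87). In a fit of the 2 groups alone neither Irf1 (adjusted p = 0.0817) nor Rsad2 (0.0524) passed with diquat, and Rsad2 was at 0.94 (0.0663) when arrays with at most 8% of probe sets below a signal of 16 were left out.

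In the 2 conditions with the highest Irf1 at 6 h, interferon-gamma genes rose more often than type I genes. With 100 mg/kg galactosamine 8 of 24 rose and none fell (median 0.66, all genes 0), with Cxcl10 up by 6.34 ± 0.66, while 6 of 34 type I genes rose and 2 fell (median 0.21). With 50 mg/kg thioacetamide 9 of 24 rose and none fell (median 0.68), with Cxcl10 up by 7.07 ± 0.43, and 7 of 34 type I genes rose and 1 fell (0.27). The difference between the 2 lists was not tested. The interferon genes Ifnb1 and Ifng passed the test in neither, and were under a signal of 16 on 82.5% and 36.6% of all arrays. The summed neutrophil signal was 1758 to 2942 against 207.1 to 506.4 with galactosamine and 2578 to 4169 against 330.1 to 566.2 with thioacetamide, 4 of 7 markers rising in each, and its part was not tested.

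Monocrotaline gave the broadest rise of the members at 6 h, where none of its dosed arrays shared a hybridisation day with its vehicle arrays. At 50 mg/kg Isg15 rose by 1.30 ± 0.25, Irf7 by 1.09 ± 0.22, Usp18 by 0.86 ± 0.31, Rsad2 by 0.78 ± 0.19 and Irf1 by 0.69 ± 0.17 (17.5% of all genes rose). At 300 mg/kg 6 members rose, led by Irf7 (1.33 ± 0.22) and Irf1 (0.83 ± 0.17), where 18.3% of all genes did. The rises of Mx1 (0.83), Isg15 (0.70), Oas1a (0.64) and Rsad2 (0.57) at 300 mg/kg and of Usp18 at 50 mg/kg were each lost with single arrays left out, with lowest values of 0.61, 0.59, 0.45, 0.44 and 0.52. These arrays were the second vehicle rat (for all but Isg15), the third vehicle rat (for all but Rsad2), and the fourth (Mx1, Oas1a), the third (Isg15, Oas1a, Usp18), the second (Isg15, Oas1a, Rsad2) or first dosed rat (Usp18). In 1 fit of all arrays these 5 rises and that of Rsad2 at 50 mg/kg (adjusted p = 0.0986) did not pass.

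Mx2 fell at 6 h with 150 mg/kg thioacetamide (-1.69, where 11.6% of all genes fell), 150 mg/kg 1,2-dichlorobenzene (-1.65, 6.97%), 20 and 25 mg/kg diquat (-1.57 and -1.19, 6.32% and 16.1%), 1500 mg/kg 1,4-dichlorobenzene (-1.53, 5.32%) and 250 mg/kg bromobenzene (-1.43, 8.63%). Single arrays ended the calls with thioacetamide (either vehicle rat, adjusted p up to 0.0676), bromobenzene (first dosed rat, 0.0514), 20 mg/kg diquat (the first, the third or the sixth dosed rat, 0.079) and 25 mg/kg diquat (8 of 12 rats, 0.12). The fall with 1,4-dichlorobenzene was lost with day as a fixed block (-1.84, adjusted p = 0.41) and over the mean of both probe sets (-0.79, 0.055), as was that with 1,2-dichlorobenzene over both probe sets (-0.72, 0.12). That with 20 mg/kg diquat was lost in a fit of the 2 groups alone (adjusted p = 0.151). That with 25 mg/kg diquat was lost over both probe sets (-0.54), with arrays centred on their median, with a pseudocount of 64 and with day as a random block, and when arrays with at most 8% of dim probe sets were left out. Isg15 fell as well with 150 mg/kg 1,2-dichlorobenzene at 6 h (-1.23), a call that held with each array left out (adjusted p up to 0.00691). At 24 h that dose raised Isg15 by 2.43. Usp18 was at 7.46, 9.01, 8.68 and 7.85 against 9.65, 9.43, 9.45 and 9.63 with 250 mg/kg bromobenzene at 6 h, a difference of -1.29 ± 0.29 and the largest fall of Usp18, at the dose that gave the largest rises at 24 h.

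**Figure D4:**
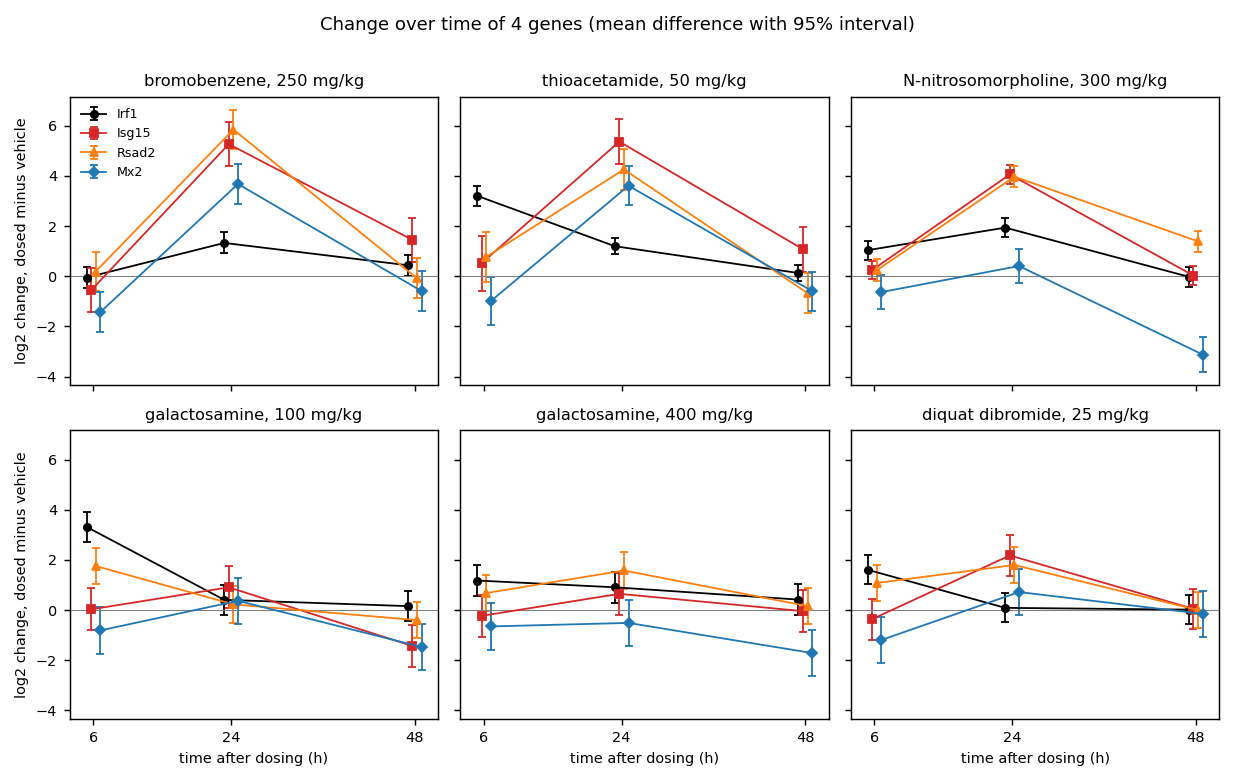
Difference from vehicle in log2(signal + 16) with 95% interval at 6, 24 and 48 h for Irf1, Isg15, Rsad2 and Mx2 in 6 dosed groups (250 mg/kg bromobenzene, 50 mg/kg thioacetamide, 300 mg/kg N-nitrosomorpholine, 100 and 400 mg/kg galactosamine and 25 mg/kg diquat). Irf1 is highest at 6 h with thioacetamide (3.21) and galactosamine (3.32), Isg15 at 24 h with bromobenzene (5.27) and thioacetamide (5.37), and Mx2 is lowest at 48 h with N-nitrosomorpholine (-3.12).

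By 48 h most rises were gone, and Mx2 fell in 6 of 24 dosed groups and was not called in 18. Over all genes 5.34% of the comparisons at 48 h were falls. With 300 mg/kg N-nitrosomorpholine Mx2 was at 6.83, 6.27, 6.92 and 6.32 against 9.90, 9.47, 9.81 and 9.61, a difference of -3.12 ± 0.34 (adjusted p = 7.23e-11), where 19.3% of all genes fell. Rsad2 was at 9.62, 9.85, 9.74 and 9.85 against 8.72, 8.00, 8.23 and 8.56, a rise of 1.39 ± 0.21 (30.1% of all genes rose). Neither gene's groups overlapped, so that in the same 4 livers an effector stood below and another above every vehicle rat. Isg15, at 9.39 to 9.81 against 9.29 to 9.84, was back within the vehicle range. The second Mx2 probe set differed by -0.42 (adjusted p = 0.428). Of the 34 further type I genes 17 fell and 9 rose (median -0.47), and the neutrophil signal was 38840 to 49420 against 308.2 to 558.7, with 7 of 7 markers rising. The part of these cells was not tested.

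Mx2 also fell at 48 h with 50 mg/kg N-nitrosomorpholine (-2.11 ± 0.34, where 6.92% of all genes fell), 400 mg/kg galactosamine (-1.71 ± 0.45, 16.2%), 1500 mg/kg 1,4-dichlorobenzene (-1.66 ± 0.38, 9.87%), 150 mg/kg thioacetamide (-1.58 ± 0.39, 21.4%) and 15 mg/kg thioacetamide (-1.55 ± 0.39, 3.37%). With hybridisation day as a fixed block the falls with N-nitrosomorpholine passed and those with the other 3 compounds did not, and over both probe sets that with 1,4-dichlorobenzene did not (-0.69, adjusted p = 0.0715). Oas1a fell with Mx2 in 3 of these groups, with differences of -1.50 ± 0.32 with galactosamine, -1.39 ± 0.34 with 150 mg/kg thioacetamide and -0.96 ± 0.25 with 50 mg/kg N-nitrosomorpholine. None of the 3 passed with day as a fixed block (adjusted p = 0.486, 0.1 and 0.0546), nor the last in 1 fit of all arrays without it (0.0525). Of the rises left at 48 h, Irf7 (1.49 ± 0.26) and Isg15 (1.45 ± 0.43) with 250 mg/kg bromobenzene (22.1% of all genes rose) and Irf7 (1.06 ± 0.32) with 50 mg/kg thioacetamide (30.4%) held with each array left out, although this last value was 0.64 (adjusted p = 0.0819) with arrays centred on their median and did not pass with day as a fixed block (0.0668). Isg15 (1.08) with 50 mg/kg thioacetamide was lost without any 1 of 7 arrays, Mx1 (1.21) with 150 mg/kg thioacetamide (36.1%) without the second dosed rat (0.97), and Isg15 (1.12) with 1500 mg/kg 1,2-dichlorobenzene (18.6%) without the first of its 2 rats (0.89). With day as a fixed block none of these last 3 passed, nor did the last in 1 fit of all arrays without it (adjusted p = 0.0747). With quantile normalization or arrays centred on their median both thioacetamide values among them did not pass. Rsad2 was lower with 50 mg/kg monocrotaline (-0.63 ± 0.19, 4.18% of all genes fell), lost without any 1 of 5 arrays, in a fit of the 2 groups alone and in a fit of all arrays with or without day as a block. For 1,4-dichlorobenzene at 1500 mg/kg 9 of 9 macrophage genes fell (summed signal 9382 to 12440 against 19160 to 23520) beside Mx2, Rsad2 (-0.94 ± 0.24), Irf7 (-0.66 ± 0.24) and Irf1 (-0.57 ± 0.13), and their part was not tested. The Irf7 call there was lost without any 1 of 7 arrays, in a fit of the 2 groups alone and with day as a random block. In a fit of all arrays neither Rsad2 (adjusted p = 0.0787), Irf7 (0.125) nor Irf1 (0.148) passed, and with day as a fixed block in it they did not either (0.653, 0.651 and 0.631). Isg15 fell at 48 h with 50 mg/kg N-nitrosomorpholine and 15 mg/kg thioacetamide, calls lost without any 1 of 5 and of 7 arrays. For Mx1, Rsad2 and Isg15 the lowest differences over all groups did not pass the test, although smaller falls were called in 2, 2 and 3 groups. Mx1 was at 7.02, 6.68, 7.41 and 6.73 against 7.91, 7.89, 8.01 and 7.65 with 15 mg/kg 1,4-dichlorobenzene at 6 h (-0.91, adjusted p = 0.0748). Rsad2 was at 7.41, 7.79, 7.31 and 7.49 against 8.58, 8.59, 8.77 and 8.62 with 15 mg/kg thioacetamide at 48 h (-1.14, 0.0678). Isg15 was at 7.57, 8.80, 9.17 and 7.76 against 9.37, 10.27, 9.61 and 9.79 with 100 mg/kg galactosamine at 48 h (-1.43, 0.226). In each of the 3 groups every dosed rat lay below every vehicle rat, but the groups were picked for their low values, which favours such a separation.

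The DNA-reactive compounds, N-nitrosomorpholine and monocrotaline, were compared with the other 6 at the highest dose of each time, with 1 value per compound. No member differed at any of the 3 times, where 0.802%, 0.0211% and 0% of all genes did, in limma over the 8 compounds. At an unadjusted p under 0.05 there were 2 members at 6 h (Irf7 and Isg15) and none at 24 or 48 h. Of the 14217 genes, 2249 were under that limit at 6 h, 905 at 24 h and 485 at 48 h. Isg15 at 6 h was 0.25 with N-nitrosomorpholine and 0.70 with monocrotaline, and between -0.77 and -0.11 with the other 6, so the 2 sets did not overlap. The difference was 0.88 ± 0.24 for Isg15 (adjusted p = 0.107) and 1.10 ± 0.37 for Irf7 (0.174), with an exact 2-sided permutation p of 0.0714 for each, the smallest that 2 against 6 compounds can give. Mx2 at 6 h had the same permutation p, with lower values than vehicle for every compound. It was -0.63 with N-nitrosomorpholine and -0.42 with monocrotaline, and between -1.69 and -0.65 with the other 6. At 24 h Isg15 was 4.06 with N-nitrosomorpholine and 0.58 with monocrotaline at 50 mg/kg, inside the range of 0.06 to 5.27 of the others, and differed by 0.31 (95% interval -2.76 to 3.38). Rsad2 at 24 h differed by -0.28 (-3.52 to 2.96). With the monocrotaline group labelled 30 mg/kg in place of 50 mg/kg, the differences at 24 h were 1.12 for Isg15 (adjusted p = 0.93) and 0.88 for Rsad2 (0.951), the latter of the other sign.

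**Figure D5:**
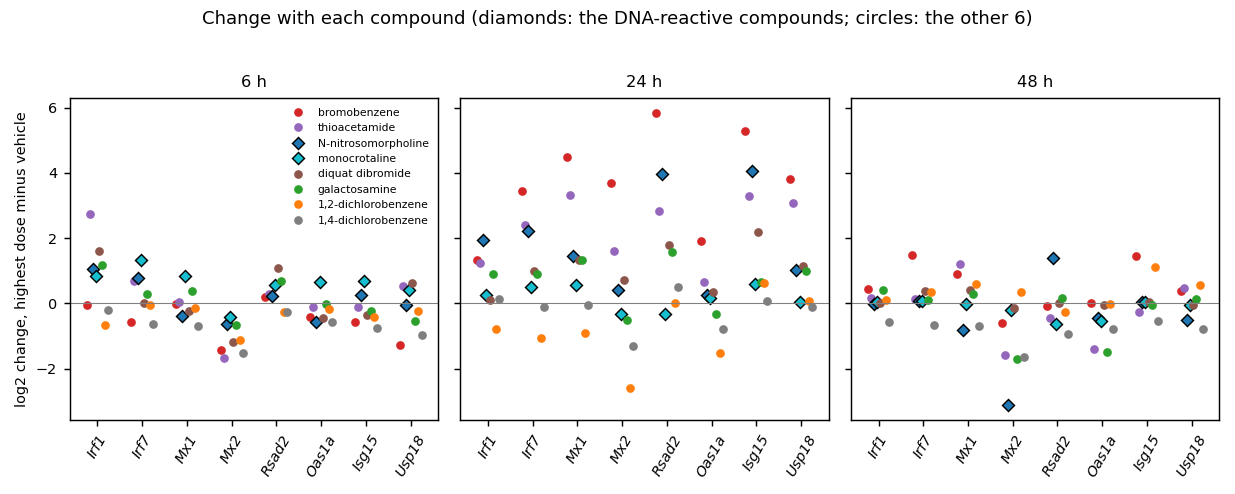
Difference from vehicle in log2(signal + 16) of each member at 6, 24 and 48 h, 1 point per compound at its highest dose, with diamonds for the DNA-reactive compounds. Isg15 and Irf7 at 6 h are the members whose diamonds lie above all other compounds with an unadjusted p under 0.05, and at 24 h bromobenzene has the highest point for Isg15 (5.27).

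Over the 318 dosed rats the members' differences from the mean of their own vehicle group followed each other to unequal degrees, given here as a description of points that share compounds, groups and arrays. Irf7 and Isg15 had a Pearson r of 0.90, Irf7 and Mx1 of 0.85 and Mx2 and Oas1a of 0.83. Irf1 stood apart, with r from 0.10 (Mx2) to 0.50 with the other 7. Irf1 and Irf7 correlated at 0.50 at 6 h, 0.82 at 24 h and 0.42 at 48 h. The genes outside the members whose differences were most like the mean difference of the 8 members over these rats, by Pearson r, were Rtp4 (0.87), Slfn4 (0.86), Oasl (0.86), Ifit3 (0.82), Znfx1 (0.82), Ifi44 (0.81), Cmpk2 (0.81), Mitd1 (0.79), Irf9 (0.78) and Herc6 (0.78).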

How the data were processed

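Liver RNA of 418 rats was hybridised to 1-colour Affymetrix rat arrays, 1 array per rat. The deposited values are log2 signals that the authors made with MAS5 (version not given in the sources used here), with every array scaled to a 2% trimmed mean of 500. Depth does not apply to arrays, so the number of arrays limits the precision. Here the values were returned to signals and analysed as log2(signal + 16). Of 31099 probe sets, 20826 had 1 gene symbol in the platform annotation, 436 several, 9780 none and 57 were controls; the symbols gave 14217 genes, and the brightest probe set on average stood for each. Groups came from the labels, and no 2 arrays held identical values. Nothing states that rats were littermates or otherwise paired.

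Each compound was fitted on its own with limma 3.58.1 in R 4.3.3 (lmFit, contrasts.fit, eBayes with trend) and p-values were adjusted by Benjamini-Hochberg over the 14217 genes of each contrast. Isomers were compared as a difference of contrasts in 1 fit of both compounds, DNA-reactive compounds over 8 compound values, and necrosis with the group as a block. The fits were tested on simulated data. Alternatives changed the scaling, pseudocount, probe set rule, filter on dim genes, arrays in the fit and hybridisation day, and left out single arrays. Each member was described in every rat of the groups with the most calls and of its largest rise and fall, and from each gene list up to 4 genes with the smallest adjusted p, with signalling genes among those called; others such as Tlr7, Gbp2, Cxcl10, Ifit3 and Oasl repeated across conditions were named after their values were seen. The members and the gene and marker lists were chosen with earlier results of these data known.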

Additional observations from a re-analysis of the deposited data

Results flagged for a closer look

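In 7 of 96 groups of 4 to 6 rats, 1 rat's mean level over the 8 members lay further from the others than Dixon's limit allows, where chance gives about 5% of groups. Below the others were the fourth vehicle rat of 1,2-dichlorobenzene at 48 h (8.5 against 9.24 to 9.34), the second vehicle rat of diquat at 48 h (9.14 against 9.48 to 9.62), the third rat given 5 mg/kg diquat at 48 h (9.23 against 9.81 to 10.06), the third rat given 10 mg/kg N-nitrosomorpholine at 6 h (8.54 against 9.25 to 9.27), the first rat given 300 mg/kg monocrotaline at 6 h (8.94 against 9.42 to 9.51) and the first rat given 10 mg/kg monocrotaline at 24 h (8.53 against 9 to 9.08). Above the others was the third rat given 5 mg/kg diquat at 6 h (10.5 against 8.45 to 9.18).

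The effect of the 2 dichlorobenzene isomers differed by a test of the difference itself in 13 cases, given as 1,2- minus 1,4-dichlorobenzene. At 150 mg/kg and 24 h these were Isg15 (2.83), Usp18 (2.41), Irf7 (1.94), Mx1 (1.84), Oas1a (1.41) and Irf1 (0.94). At 1500 mg/kg and 24 h they were Irf1 (-0.94) and Irf7 (-0.93), and at 1500 mg/kg and 48 h Mx2 (2.02), Isg15 (1.67), Usp18 (1.36), Mx1 (1.28) and Irf7 (1.02).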

How the results depend on the processing

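No called member difference changed direction under any alternative tried. In the comparison of DNA-reactive compounds, where no member passed, 26 of 413 values took the other sign. At 24 h Isg15 (0.31) was -0.08 without 1,4-dichlorobenzene and -1.43 without N-nitrosomorpholine, and Rsad2 (-0.28) was 0.17 over the mean of all doses, 0.88 with the monocrotaline group labelled 30 mg/kg, 0.47 without bromobenzene and 1.88 without monocrotaline. Hybridisation day as a fixed block in a fit of all arrays, in which 60 of the 74 dosed groups could be estimated, moved the counts most: rises went from 107 to 58 and falls from 33 to 10 over all groups (85 and 28 without the block in those 60). It gave 0 rises with 25 mg/kg diquat (5 before), 1 with 400 mg/kg galactosamine (5) and 0 with 1500 mg/kg 1,2-dichlorobenzene (1), and 0 falls with 1500 mg/kg 1,4-dichlorobenzene (1), all at 24 h. At 6 and 48 h it also ended member calls, given beside them above. It took the isomer calls from 13 to 3 in all, from 6 to 3 at 150 mg/kg and 24 h, from 2 to 0 at 1500 mg/kg and 24 h and from 5 to 0 at 48 h. The cause was not tested. Day as a random block ended 7 of 140 named calls.

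Arrays centred on their median gave 2 rises with galactosamine, 2 falls with 1,4-dichlorobenzene, and 1 and 2 isomer calls at 1500 mg/kg at 24 and 48 h. Quantile normalization gave 0 rises with 1,2-dichlorobenzene, 2 falls with 1,4-dichlorobenzene, and 1 and 2 isomer calls. A fit of the 2 groups alone gave 0 rises with galactosamine and with 1,2-dichlorobenzene and 2 falls with 1,4-dichlorobenzene; all arrays in 1 fit gave 0 rises with 1,2-dichlorobenzene. The 7109 genes with the higher mean signal (without Mx1) gave 2 falls with 1,4-dichlorobenzene. A pseudocount of 1 and the mean of all probe sets each gave 3 isomer calls at 48 h. With the group labelled 30 mg/kg in place of 50 mg/kg, monocrotaline gave 6 rises at 24 h in place of 0. For DNA-reactive compounds, where no member was called, the 6 h count was 1 with a pseudocount of 64, 1 in the brighter genes (Isg15, adjusted p = 0.0301) and 2 with rats as replicates, which gave 2 at 24 h and 1 at 48 h. Rats given 1 compound share that compound, so the counts with rats as replicates do not test a difference between kinds of compound. The necrosis count went from 6 to 3 without diquat.

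With 1 array left out, rises ranged from 0 to 1 with 1500 mg/kg 1,2-dichlorobenzene, 3 to 5 with galactosamine and 0 to 3 with 50 mg/kg monocrotaline, and isomer calls from 1 to 2 and from 1 to 5 at 1500 mg/kg at 24 and 48 h. No paired analysis was possible because the labels give no replicate numbers or pairing of dosed with vehicle rats. The limits are 4 rats in most groups, day and dose that coincide in many groups, and probe sets read through the array's own annotation.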
